A study of Mus musculus with 12 samples.

Results

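Connexin genes of cultured keratinocytes were followed across 12 RNA-Seq libraries. The 4 genes are *Gja1*, *Gjb2*, *Gjb5* and *Gjb6*, chosen by name from a count table of 21947 loci, and each was found as a row of its own. The libraries came from primary cultures of keratinocytes of neonatal BALB/c mice, grown at 0.05 mM calcium and brought to 0.12 mM to start differentiation. Transfection used 75 pmol of siRNA, a short interfering RNA mixture that was either directed at *Sbsn*, the gene of the epidermal protein suprabasin (siSbsn), or non-targeting (siControl), while further cultures had no siRNA, and RNA was harvested 48 hours later. There were 2 libraries per condition in batch 1, and in batch 2 there were 3 with siControl, 3 with siSbsn and none without siRNA. The labels do not say what a batch was, nor whether libraries of a group came from separate cultures, so p-values measure only the spread between these libraries.

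Connexins are membrane proteins that form hexameric channels, and the channels of neighbouring cells dock into gap junctions through which ions and small metabolites pass. In mouse epidermis several connexins are made side by side. *Gja1* encodes connexin 43, the widely expressed member that is prominent in the lower epidermal layers and is also made by fibroblasts. *Gjb2* and *Gjb6* encode connexins 26 and 30, which can join in mixed channels and whose human counterparts are mutated in hereditary deafness and skin disease. *Gjb5* encodes connexin 31.1, a member found mainly in stratified epithelia. A gap junction gene can be expressed in any cell of a culture, and in bulk RNA fewer cells of a type and less RNA per cell cannot be told apart.

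Total counts per library ranged from 27934836 to 49553923. Levels are given as CPM, the count of a locus scaled to the normalized size of its library. The targeted gene *Sbsn* checks the labels. In batch 2 the siControl libraries read 371, 332 and 459 CPM and the siSbsn libraries 124, 125 and 121 CPM, which is 31.8% by the means. In batch 1 the readings were 1697 and 1231 CPM for no siRNA, 1189 and 1356 CPM for siControl, and 1965 and 696 CPM for siSbsn. The library labelled siSbsn batch 1 replicate 1 thus had the most *Sbsn* of all 12 libraries and goes against its label, and values of siSbsn that rest on it are also given without it. The cultures carried their keratinocyte label: all 9 keratinocyte markers were measured, *Krt5* at 6489 CPM or more and *Krt14* at 9607 CPM or more in every library. The 8 fibroblast markers summed to 411 to 1249 CPM and the 7 melanocyte markers to 742 to 1091 CPM. The 5 immune markers summed to 1.52 to 9.30 CPM, with *Cd207* of Langerhans cells at 0 in every library. Endothelial, Schwann, Merkel and muscle markers summed to between 1.19 and 10.5 CPM in each library.

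In mm10 *Gja1* spans 56377273 to 56390419 of chromosome 10, plus strand. Its longest coding transcript has 3182 bases in 2 exons, and the protein is coded in 1 of them. *Gjb2* (chromosome 14, 57098602 to 57104702) and *Gjb6* (chromosome 14, 57123301 to 57133611) are neighbours on the minus strand, 18598 bases apart. *Gjb5* (chromosome 4, 127354809 to 127358164) is also on the minus strand. The counted loci of *Gjb2* and *Gjb6* do not overlap.

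The 250 bases upstream of each RefSeq start site (GRCm38.p6) are shown because *Gjb2*, *Gjb5* and *Gjb6* were lower together in batch 2 while *Gja1* was not called, as described further on. Capitals mark matches, on either strand, to motifs searched by their letters. The motif of AP-1 factors was spelled TGACTCA. For the GC box of Sp1-like factors the search word was GGGCGG, and for the CCAAT box it was the name itself. The TATA box was searched as TATAAA. For AP-2 factors the search word was GCCNNNGGC, with N for any base. Each line reads 5′ to 3′ along the strand of the gene.

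Gja1 (chr10:56377050-56377299, plus strand): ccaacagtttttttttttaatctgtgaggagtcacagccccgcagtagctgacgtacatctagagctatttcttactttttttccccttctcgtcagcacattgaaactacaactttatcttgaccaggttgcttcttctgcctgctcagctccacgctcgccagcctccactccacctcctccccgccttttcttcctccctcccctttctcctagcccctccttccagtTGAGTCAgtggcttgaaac
Gjb2 (chr14:57104703-57104952, minus strand): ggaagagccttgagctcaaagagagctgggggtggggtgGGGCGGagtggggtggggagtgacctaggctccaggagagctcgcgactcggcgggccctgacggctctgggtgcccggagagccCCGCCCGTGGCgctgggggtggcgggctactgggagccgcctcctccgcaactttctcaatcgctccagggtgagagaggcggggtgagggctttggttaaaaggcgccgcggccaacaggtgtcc
Gjb5 (chr4:127358165-127358414, minus strand): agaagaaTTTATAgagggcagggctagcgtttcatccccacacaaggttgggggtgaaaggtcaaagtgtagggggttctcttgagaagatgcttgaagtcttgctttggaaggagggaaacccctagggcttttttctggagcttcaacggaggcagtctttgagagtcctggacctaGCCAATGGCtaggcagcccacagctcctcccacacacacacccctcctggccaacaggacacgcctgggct
Gjb6 (chr14:57133612-57133861, minus strand): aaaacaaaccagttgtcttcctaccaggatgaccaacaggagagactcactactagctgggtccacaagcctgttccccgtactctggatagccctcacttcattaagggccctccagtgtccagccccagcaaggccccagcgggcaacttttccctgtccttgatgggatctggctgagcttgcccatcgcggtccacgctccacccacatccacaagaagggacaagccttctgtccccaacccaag

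The AP-1 motif was matched upstream of *Gja1*, 19 bases before the RefSeq start site. The counted locus of *Gja1* begins at 56377273, inside this window, so the match lies within that locus. *Gjb2* had 2 GC boxes, and the AP-2 motif overlapped the one nearer to the start. In *Gjb5* the capitals are a TATA box on the opposite strand, near the far end of the window, and a CCAAT box that lies inside an AP-2 match about 70 bases before the start. No listed motif was found in the window of *Gjb6*. Of 32851 mouse promoter windows of this length, 4.46% hold the AP-1 motif, 32.7% a GC box, 33.8% a CCAAT box, 12.4% a TATA box and 13.7% the AP-2 motif. No motif searched was shared by all 3 genes that were lower in batch 2. A match is only a match of letters, and the absence of one says nothing of a factor.

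Levels of different genes were compared per kb of the longest annotated transcript. In batch 1 *Gja1* was at 16.3 to 50.5 CPM per kb (median 27.1), *Gjb2* at 9.61 to 15.6 (median 11.4), *Gjb5* at 1.33 to 7.39 (median 4.14) and *Gjb6* at 0.378 to 0.815 (median 0.594). The order *Gja1*, *Gjb2*, *Gjb5*, *Gjb6* held in 12 of 12 libraries. In batch 2 the same order was spread more widely, with medians of 20.0, 3.72, 0.641 and 0.105 CPM per kb. Each of the 6 pairs of genes had the smallest p that the exact two-sided paired permutation test allows, which is 0.0312 in the 6 libraries of each batch and 0.000488 over 12 libraries, also after Benjamini-Hochberg adjustment over the 6 pairs. The mean *Gja1* level was 2.51 times the *Gjb2* level in batch 1 and 5.11 times it in batch 2, as geometric means per kb. The place of *Gja1* depends on the length used, since its longest transcript of 3889 bases ends beyond the counted locus. Per kb of the longest coding transcript, *Gja1* was above *Gjb2* in 12 of 12 libraries (exact permutation p = 0.000488). All exons of *Gja1* joined (10257 bases) also run past the end of the counted locus. Per kb of that length, the log2 difference from *Gjb2* in batch 1 was -0.07 (exact permutation p = 0.844, and 3 of 6 libraries with *Gja1* higher). Over 12 libraries it was 0.44 (exact permutation p = 0.0674, and 9 with *Gja1* higher). By that length *Gja1* was above *Gjb5* in 5 of 6 libraries of batch 1 (exact permutation p = 0.0625).

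The make-up of the 4 genes shifted between the batches. Of their summed CPM per kb, *Gja1* held 47.7% to 74.2% in batch 1 (median 64.9%) and 77.8% to 83.5% in batch 2 (median 81.8%), without a higher level in CPM. *Gjb2* held 14.1% to 36.2% in batch 1 and 13.5% to 18.8% in batch 2, with medians of 28.5% and 15.4%. *Gjb5* had a median share of 7.71% in batch 1, where it ranged from 3.12% to 18.8%, and of 2.60% in batch 2. *Gjb6* stayed at or below 1.89% in every library. These shares are a description with no test, and they carry the same length dependence of *Gja1*, whose median shares were 41.5% and 63.1% per kb of joined exons.

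**Figure D1:**
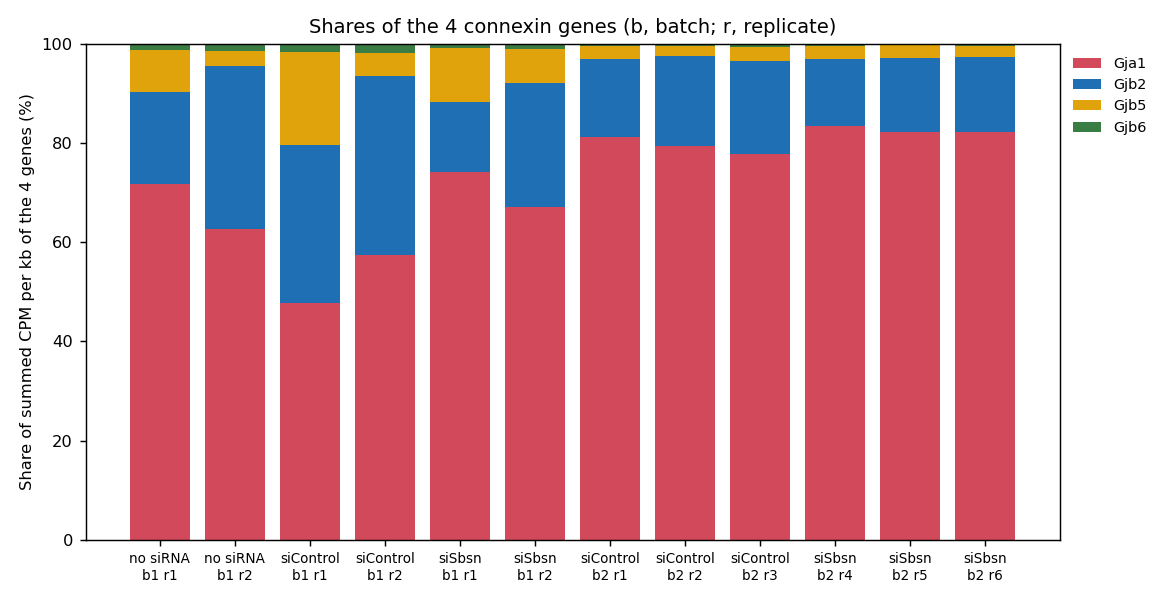
Stacked bars give the share (%) of each of the 4 connexin genes in their summed CPM per kb in each of the 12 libraries. *Gja1* (red) fills 47.7% to 74.2% of the bars of batch 1 and 77.8% to 83.5% of those of batch 2, *Gjb2* (blue) fills 13.5% to 36.2% of all bars, and *Gjb6* (green) is a thin strip at the top.

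The question of the study design, whether loss of *Sbsn* changes expression in differentiating keratinocytes, was put to each gene by comparing siSbsn with siControl with batch in the model. A gene was called where its q-value was under 0.05 and its log2 fold change exceeded 0.5 in size. None of the 4 genes was called, nor any of the 13211 loci tested (0.0% by edgeR's quasi-likelihood test). The targeted gene *Sbsn* was itself not called in this fit, at -0.96 (SE 0.35, q = 0.256 from edgeR). That fit includes the library that goes against its label. A gene not called here is therefore not shown to be unchanged. Unadjusted p was under 0.05 for 2501 loci and for 1 of the 4 genes, *Gjb2*. DESeq2 called 50 loci higher and 42 lower, and none of the 4 genes.

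*Gjb2* was the gene whose libraries separated. The batch 1 libraries read 28.7 and 33.6 CPM (no siRNA), 26.3 and 37.5 CPM (siControl) and 23.1 and 24.5 CPM (siSbsn). Those of batch 2 read 9.20, 11.4 and 10.98 CPM (siControl) and 8.10, 8.67 and 8.72 CPM (siSbsn). In batch 1 the siSbsn libraries were lower than both libraries that had no siRNA, an order whose share over all loci is not given here. Within each batch all siSbsn libraries were lower than all siControl libraries. The gap was small, since mean *Gjb2* in siSbsn came to 74.7% of that in siControl in batch 1 and to 80.8% in batch 2, and the lowest siControl library of each batch lay close to the highest siSbsn library. Of the 13211 loci tested, 544 (4.12%) were lower in this way in both batches and 663 (5.02%) were higher, so the separation is not particular to *Gjb2*. With batch in the model the log2 fold change was -0.35 (SE 0.11, unadjusted p = 0.0101, q = 0.256 from edgeR). Permuting the labels inside each batch, an exact test with 2 sides, gave p = 0.0167, the smallest that 120 arrangements can reach, and 4 such tests were run. Leaving out siSbsn batch 1 replicate 1, the library whose *Sbsn* goes against its label, gave -0.33 (q = 0.388 from edgeR). After removal of a trend of fold change with gene length it was -0.10 (q = 0.891 from edgeR).

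*Gja1* varied widely in batch 1, both between libraries of a condition and between conditions. The libraries read 179 and 104 CPM (no siRNA), 63.3 and 96.3 CPM (siControl) and 196 and 107 CPM (siSbsn). Both siSbsn libraries lay above both siControl libraries there, an order of 2 against 2 whose share over all loci is not given here. The libraries without siRNA were as high as those with siSbsn. In batch 2 the siControl libraries were at 77.2, 80.6 and 73.6 CPM and the siSbsn libraries at 81.0, 78.3 and 76.6 CPM, and the groups overlapped. The log2 fold change was 0.91 in batch 1 alone (SE 0.36, q = 0.423 from edgeR), or 0.42 (SE 0.54, q = 0.987 from edgeR) without the library labelled siSbsn batch 1 replicate 1, which has the most *Gja1*, and 0.03 in batch 2 alone (SE 0.06, q = 0.846 from edgeR). The fit of all 10 libraries gave 0.39 (SE 0.21, unadjusted p = 0.0893, q = 0.287 from edgeR; exact permutation p = 0.1). Leaving out the library labelled siSbsn batch 1 replicate 1 gave 0.16 (q = 0.498 from edgeR).

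The batch 2 effect on *Gja1* minus that of batch 1 was -0.88 (log2, SE 0.34, unadjusted p = 0.0274, q = 0.304 from edgeR's test of the interaction). No interaction was called among 13419 loci (0.0%). Blocking batch 1 on the replicate number, the interaction was called for 8 loci upwards and 65 downwards, none of them among the 4 genes, and *Gja1* was at q = 0.147 from edgeR. The interaction of *Gja1* was called without siControl batch 1 replicate 2 (-1.22, q = 0.0170 from edgeR), in a fit that called 2101 loci upwards and 2674 downwards. It was also called without siSbsn batch 1 replicate 2 (-1.25, q = 0.0429 from edgeR), where 81 loci were called upwards and 330 downwards, and it was -0.40 (q = 0.528 from edgeR) without the library labelled siSbsn batch 1 replicate 1. Within batch 1 alone, *Gja1* was called higher in siSbsn without siControl batch 1 replicate 2 (1.20, q = 0.0145 from edgeR), a fit that left siControl with 1 library assumed to vary like the rest and that called 1700 loci higher and 1699 lower.

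The summed level of fibroblast markers, mostly *Col1a1*, was highest in the 2 libraries with the most *Gja1*. The sum was 1010 and 537 CPM without siRNA, 477 and 461 CPM in siControl and 1249 and 541 CPM in siSbsn of batch 1, and between 411 and 477 CPM in batch 2. All 8 fibroblast markers were tested, with *Col1a1*, a fibrillar collagen chain, the most abundant at 261 to 902 CPM and *Lum* the least at 0.370 to 0.902 CPM. Not all followed the sum, since *Dcn* (3.17 to 5.14 CPM in batch 1 and 7.89 to 10.4 CPM in batch 2) and *Lum* were higher in every library of batch 2 than in any of batch 1. The 2 libraries with the highest sums were also the 2 with the highest *Gja1*, and they had the highest immune marker sums, 9.30 and 8.78 CPM, of the 12 libraries. Within batch 1 they also had the highest melanocyte sums, 911 and 930 CPM, and Schwann sums, 10.1 and 10.0 CPM. Keratinocyte, endothelial, Merkel and muscle sums were not highest in both. The part of any of these cell types in the level of *Gja1* was not tested. *Gjb2* showed no such order, at 28.7 and 23.1 CPM in the same 2 libraries, the second being the lowest of batch 1.

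**Figure D2:**
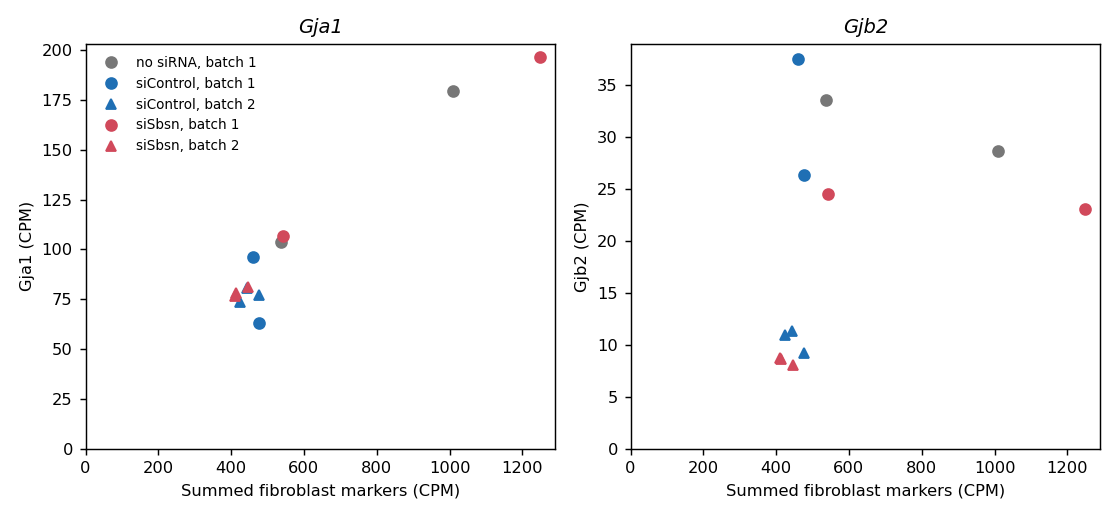
Each point is a library, with the summed CPM of 8 fibroblast markers on the x axis and the CPM of *Gja1* (left) or *Gjb2* (right) on the y axis. Circles are batch 1 and triangles batch 2. The 2 libraries with the most fibroblast marker RNA, 1010 and 1249 CPM, hold the 2 highest *Gja1* values, 179 and 196 CPM, while their *Gjb2* values, 28.7 and 23.1 CPM, are not high for batch 1 and the second is its lowest.

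*Gjb5* differed more by replicate number than by condition in batch 1. The libraries read 9.39 and 2.29 CPM (no siRNA), 11.02 and 3.32 CPM (siControl) and 12.7 and 4.87 CPM (siSbsn). Replicate 1 was above replicate 2 in each condition, by 4.11, 3.32 and 2.61 times. In batch 2 they read 1.098, 0.882 and 1.19 CPM (siControl) and 1.11, 1.17 and 0.917 CPM (siSbsn), where the groups overlapped and their means, 1.06 and 1.07 CPM, lay within the SD of either. Fitted with batch, the log2 fold change was 0.16 (SE 0.35, q = 0.782 from edgeR; exact permutation p = 0.517), and with the replicate number of batch 1 as a block it was 0.20 (SE 0.13, q = 0.286 from edgeR). Leaving out the library labelled siSbsn batch 1 replicate 1 turned it to -0.20 (q = 0.727 from edgeR), in a fit that sets replicate 2 of siSbsn against both siControl replicates of batch 1. Within each replicate number of batch 1 *Gjb5* was higher in siSbsn than in siControl, and higher in siControl than without siRNA.

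*Gjb6* was near the limit of what these libraries could count. In batch 1 it had 65 and 46 counts without siRNA, 31 and 60 in siControl and 40 and 33 in siSbsn, which are 1.52, 1.27, 1.12, 1.72, 1.23 and 0.796 CPM. In batch 2 it had 8, 10 and 10 counts in siControl and 12, 2 and 6 in siSbsn, and the groups overlapped in both batches. The lowest value, 2 counts in siSbsn batch 2 replicate 5, is 0.0691 CPM with an exact 95% Poisson interval of 0.00836 to 0.249 CPM, which covers counting error only and reaches the lowest of the siControl values, 0.209 CPM, but not the others, 0.252 and 0.322 CPM. Fitted with batch, it was -0.55 (SE 0.28, unadjusted p = 0.0758, q = 0.276 from edgeR; exact permutation p = 0.0833), and -0.74 (q = 0.388 from edgeR) without the library labelled siSbsn batch 1 replicate 1. In batch 2 alone *Gjb6* did not pass the filter on low counts, so edgeR did not test it there. DESeq2 gave -0.69 (SE 0.68, unadjusted p = 0.316) with no q-value, at counts that limit what can be said.

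**Figure D3:**
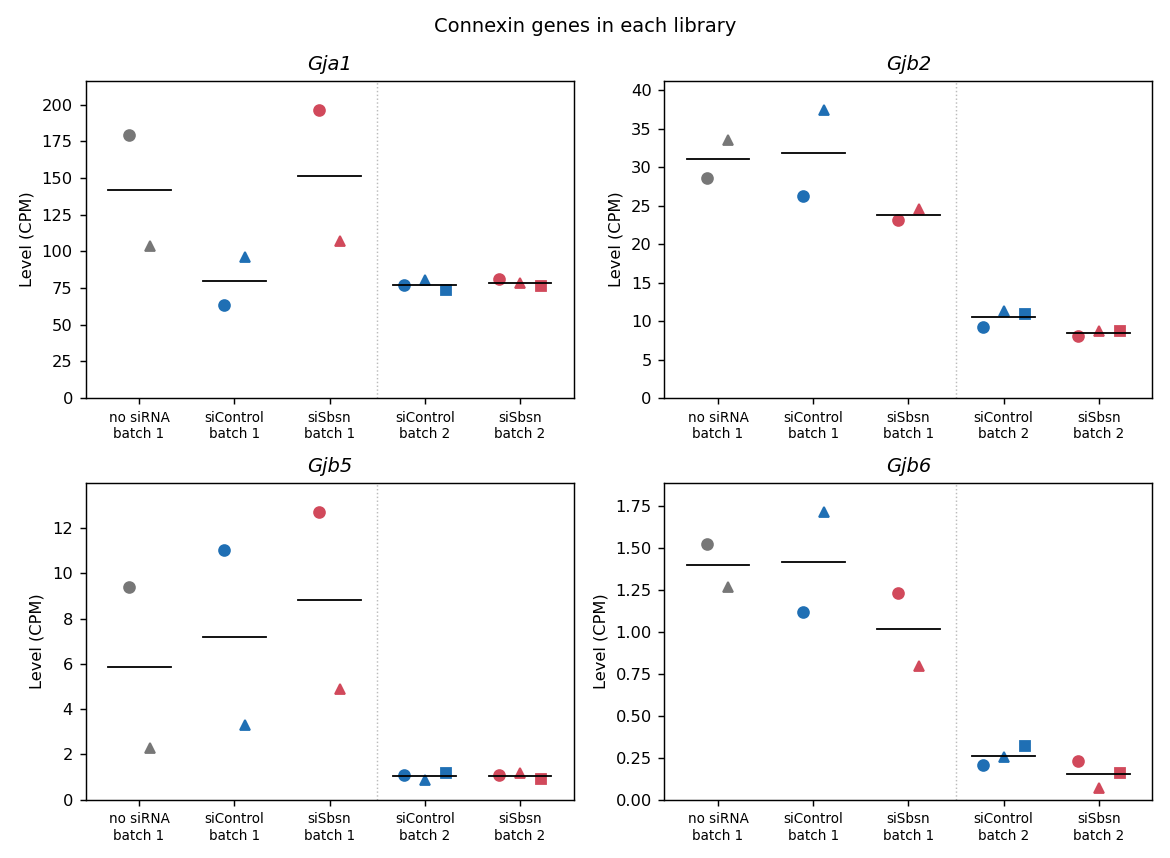
Each panel gives the CPM of a connexin gene in every library, by condition and batch. Circles, triangles and squares are the replicates of a group in numerical order and bars are group means. *Gjb2*, *Gjb5* and *Gjb6* lie lower in every batch 2 library than in any batch 1 library, while *Gja1* overlaps.

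**Figure D4:**
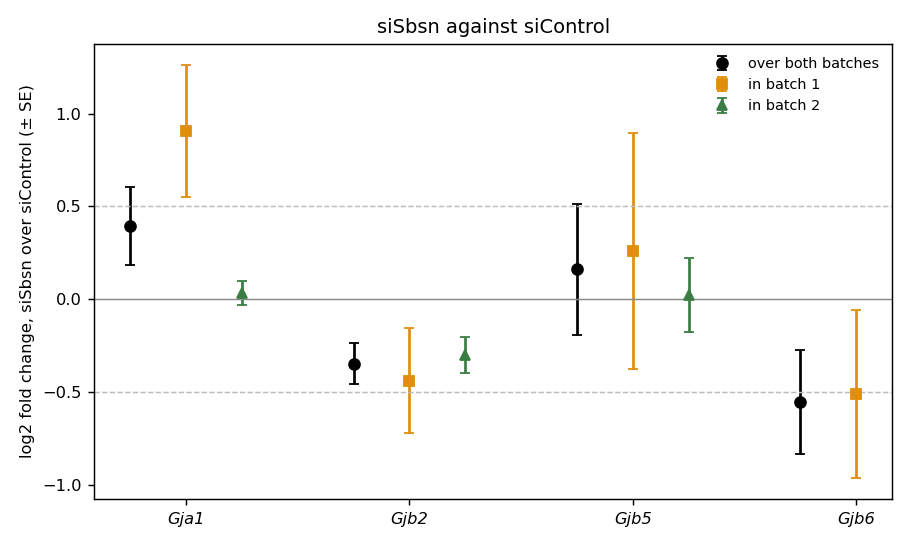
Points are log2 fold changes of siSbsn over siControl from edgeR, over both batches and in each batch alone, with bars of 1 SE. Dashed lines mark 0.5 on either side of 0. *Gja1* is at 0.91 in batch 1 and 0.03 in batch 2, and *Gjb2* is below 0 in all 3 fits. *Gjb6* has no value in batch 2.

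In batch 2 alone, edgeR called 1 of 12924 loci (0.00774%), which was *Sbsn* itself at -1.64 (q = 0.00056). *Gjb2* was at -0.30 (SE 0.10, unadjusted p = 0.0120, q = 0.454 from edgeR) there. In batch 1 alone 0 of 12899 loci were called (0.0%), with 1512 at an unadjusted p under 0.05, and *Gjb2* was at -0.44 (SE 0.28, q = 0.478 from edgeR) and *Gjb6* at -0.51 (SE 0.45, q = 0.580 from edgeR). Without the library that goes against its label these were -0.38 and -0.83 (both q = 0.987 from edgeR).

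The libraries without siRNA set the background of transfection in batch 1. Between siControl and no siRNA, edgeR called 0 of 13176 loci (0.0%) while 2116 had an unadjusted p under 0.05. DESeq2 called 25 loci, all lower. *Gja1* was lower in siControl by a fitted log2 value of -0.80 (SE 0.39, q = 0.321 from edgeR). The siControl libraries at 63.3 and 96.3 CPM lay below the 2 libraries without siRNA, an order whose share over all loci is not given here. *Gjb2*, *Gjb5* and *Gjb6* were at 0.07, 0.33 and 0.06 on the log2 scale, all with groups that overlapped. siSbsn against no siRNA also called 0 of 13176 loci (0.0%), with 23 at an unadjusted p under 0.05 and none called by DESeq2. There *Gja1* was at 0.10 (SE 0.39), *Gjb2* at -0.39 (SE 0.23), *Gjb5* at 0.58 (SE 0.81) and *Gjb6* at -0.47 (SE 0.40) on the log2 scale, each with q near 1. Without the library that goes against its label *Gja1* and *Gjb5* turned to -0.40 and -0.26, and *Gjb2* and *Gjb6* were at -0.34 and -0.81. The siControl and siSbsn comparisons share the libraries without siRNA.

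The batches differed far more than the conditions. In edgeR's fit of batch beside treatment, 2170 of 13211 loci were called higher in batch 2 (16.4%) and 2854 lower (21.6%). Of the 4 genes 3 fell in batch 2. *Gjb5* fell by 2.91 (log2, SE 0.35, q = 0.000114 from edgeR), from a median of 7.13 CPM to 1.102 CPM. *Gjb6* fell by 2.52 (SE 0.28, q = 6.3e-05 from edgeR), from a median of 1.25 CPM to 0.221 CPM, and *Gjb2* fell by 1.55 (SE 0.11, q = 5.28e-06 from edgeR), from 27.5 CPM to 8.96 CPM. Every batch 2 library lay below every batch 1 library for these 3 genes, as for 2180 of the 13211 loci (16.5%). With the replicate number as a block *Gjb5* was at -3.49 (q = 2.64e-07 from edgeR).

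*Gja1* was at -0.52 between the batches (SE 0.21, unadjusted p = 0.0339, q = 0.0598 from edgeR) and was not called. Its batch 1 libraries spread from 63.3 to 196 CPM around the batch 2 libraries, which spread only from 73.6 to 81.0 CPM. The call turned on single libraries and on the filter. *Gja1* was called lower in batch 2 without a filter on low counts (-0.51, q = 0.0361 from edgeR), without siControl batch 1 replicate 1 (-0.71, q = 0.00586 from edgeR) and without siSbsn batch 1 replicate 2 (-0.59, q = 0.0495 from edgeR), and it was at -0.19 (q = 0.263 from edgeR) without the library labelled siSbsn batch 1 replicate 1. Without that library *Gjb2*, *Gjb5* and *Gjb6* were at -1.56, -2.52 and -2.37 and were still called.

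Of 15 further connexin and pannexin genes reported here, 5 passed the filter. By edgeR 2 of the 5 were called higher in batch 2 and none lower, against 16.4% and 21.6% of all loci. Their median log2 fold change was 0.42 against -0.02 for all loci tested. The lean depends on the tool and its filter. DESeq2 tested 12 of the 15, some at only a few counts, and called 3 higher and none lower. Of its 12 genes 7 lay below 0, with a median of -0.31 against 0.04. *Gjc3*, a gamma-class connexin of myelinating cells, rose by 0.86 (q = 0.00264 from edgeR) from a median of 0.4997 CPM to 0.896 CPM. *Gjd2* was also called higher, at 2.31 (q = 9.21e-05 from edgeR), but its row joins it with C130080G10Rik and A530058N18Rik, so the reads cannot be assigned. *Gjc1*, which encodes connexin 45, was at 0.42 (q = 0.00752 from edgeR), below the fold threshold, with medians of 7.09 CPM and 8.74 CPM. *Panx1*, a pannexin channel gene, was at -0.48 (q = 0.00224 from edgeR), also below the threshold, and *Gja4* at 0.06 (q = 0.905 from edgeR).

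**Figure D5:**
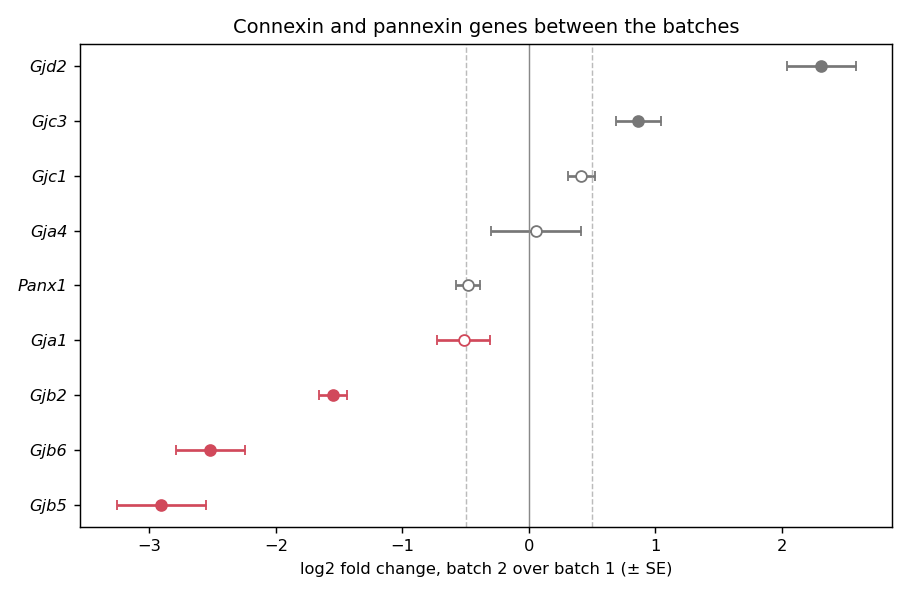
Points are log2 fold changes of batch 2 over batch 1 from edgeR with bars of 1 SE, for the 4 genes (red) and the 5 further connexin and pannexin genes (grey). Filled points were called and dashed lines mark 0.5 on either side of 0. *Gjb5*, *Gjb6* and *Gjb2* lie between -2.91 and -1.55.

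Marker sums also differed between the batches. Keratinocyte markers summed to 24804 to 49589 CPM in batch 1 and 19675 to 24750 CPM in batch 2, ranges that nearly touch. Melanocyte markers summed to 742 to 930 CPM and 1029 to 1091 CPM. Neither sum overlapped between the batches. Of single loci, 16.5% were lower in every batch 2 library than in any of batch 1, and the share that was higher is not given here. The keratinocyte sum was mostly *Krt5* and *Krt14*. *Krt5* and *Epcam* were lower in every batch 2 library than in any of batch 1, and *Itgb4* was higher there (1123 to 1257 CPM against 1392 to 1519 CPM). *Krt14*, *Trp63*, *Cdh1*, *Itga6*, *Krt1* and *Krt10* overlapped. The part of these markers in the lower connexin levels was not tested, and what else differed between the batches cannot be told apart from the batch.

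For siSbsn against siControl, none of the 5 further connexin and pannexin genes was called. Their log2 fold changes were -0.34 for *Gja4* (q = 0.534 from edgeR), -0.15 for *Gjc1*, -0.10 for *Gjd2*, -0.05 for *Panx1* and -0.04 for *Gjc3*, and the direction of each turned under some of the alternatives. Without the library that goes against its label they were -0.36, -0.17, 0.02, -0.07 and -0.06, in the same order.

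Connexins are anchored, moved, modified and degraded with the help of partners such as the scaffold *Tjp1* (ZO-1), caveolins, ubiquitin ligases and kinases. Of 27 such partner genes reported here 26 were tested. For siSbsn against siControl none was called, 18 lay above 0 and 8 below, and the median log2 fold change was 0.13 against 0.01 for all loci tested. The smallest p upwards was that of *Ctnnb1* (beta-catenin) at 0.33 (SE 0.11, unadjusted p = 0.00977, q = 0.256 from edgeR), and downwards that of *Sqstm1*, an autophagy receptor, at -0.47 (SE 0.14, unadjusted p = 0.00521, q = 0.256 from edgeR). Without the library that goes against its label they were at 0.24 and -0.35 (both q = 0.388 from edgeR). *Sqstm1* also had the smallest p downwards within batch 1 (-0.78, q = 0.423 from edgeR) and within batch 2 (-0.29, q = 0.355 from edgeR), and *Cav2* at 0.68 (q = 0.423 from edgeR) had the smallest upwards in batch 1. For the interaction these were *Sqstm1* at 0.47 (q = 0.368 from edgeR) and *Cav2* at -0.78 (q = 0.272 from edgeR). Without that library *Sqstm1* and *Cav2* were at -0.49 and 0.41 in batch 1 and at 0.18 and -0.51 for the interaction.

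Between the batches 1 of the 26 partner genes was called higher and 3 lower, against 16.4% and 21.6% of all loci, with a median of 0.00409 (log2) against -0.02. *Smurf2*, a ubiquitin ligase, rose by 0.68 (SE 0.17, q = 0.00753 from edgeR). *Mapk3*, the kinase ERK1 that phosphorylates connexin 43, fell by 1.099 (SE 0.14, q = 0.000183 from edgeR), and *Dbn1* (drebrin) and *Cav2* fell by 0.74 and 0.68. *Tjp1* was not called, at 0.36 (q = 0.268 from edgeR). Against no siRNA none was called, with *Mapk7* at 0.33 (q = 0.351 from edgeR) and *Prkca* at -0.62 (q = 0.308 from edgeR) the genes of smallest p upwards and downwards for siControl, and *Mapk3* at 0.26 and *Cyr61* at -0.32 (both q = 1.0 from edgeR) for siSbsn. Without the library that goes against its label *Mapk3* turned to -0.04 and *Cyr61* was at -0.30.

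The loci most like each gene were found by Pearson's r of log2(CPM + 0.5) over the 12 libraries after the mean of each batch was removed, a description over libraries that share batches, with no test. *Gja1* was most like *Hsd17b7* (r = 0.991), an enzyme of cholesterol synthesis, and was also close to *Adgra3* (r = 0.985), an adhesion receptor. *Hsd17b7* ranged from 24.5 to 130 CPM in batch 1 and from 22.8 to 29.4 CPM in batch 2, wide and narrow ranges as for *Gja1*. *Gjb2* was most like *Csf1* (r = 0.979), a macrophage growth factor, *Mmp13* (r = 0.968), a collagenase, and *Cyr61* (r = 0.956), a matricellular protein. With batch means kept, *Mmp13* stayed alike at r = 0.971, while *Csf1* was at r = 0.616 and *Cyr61* at r = -0.0906. *Gjb2* differed between the batches, and *Csf1* and *Cyr61* did not in the same way. *Gjb5* was most like *Ly6d* (r = 0.985), a keratinocyte surface protein, *Mapk3* (r = 0.979) and *Ociad2* (r = 0.978). These also stayed alike with batch means kept, at r = 0.991, 0.994 and 0.984. *Gjb6* was most like *Tmc8* (r = 0.901), 2900005J15Rik (r = 0.883) and *Hey1* (r = 0.864), all at low counts, where a correlation says little.

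Among themselves the 4 genes did not follow a single pattern. The neighbours *Gjb2* and *Gjb6* were the most alike, at r = 0.664 with batch means removed, where *Gjb2* was number 93 of 10941 loci in likeness to *Gjb6* and *Gjb6* number 345 in likeness to *Gjb2*, at the low counts of *Gjb6*. *Gjb2* and *Gjb5* were at r = -0.624 with batch means removed and at 0.756 with them kept. *Gja1* was at -0.253 with *Gjb2*, 0.304 with *Gjb5* and 0.169 with *Gjb6*.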

How the data were processed

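Counts of 12 RNA-Seq libraries were analysed, grouped by the condition and batch of the sample labels. The authors aligned reads to mm10 with STAR, kept uniquely aligned reads and counted them on UCSC KnownGene loci, joining overlapping genes. The authors deposited raw counts, with no scaling. Reads shared by close paralogs were dropped, and use of strand in counting is not stated in the Methods or labels. The Methods describe triplicates, while the labels give 2 or 3 libraries a group.

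Here edgeR 4.0.16 in R 4.3.3 was used for TMM scaling, the filter on low counts (filterByExpr) and quasi-likelihood tests. Benjamini-Hochberg q-values cover all loci tested. Calls needed q under 0.05 and, except for the interaction, a log2 fold change over 0.5 in size, as in the Methods. The SE is the size of the log2 fold change over the root of F. DESeq2 1.42.0 and limma 3.58.1 were alternatives, and scripts were tested on simulated data. Exact permutation tests used log2(CPM + 0.5). In batch 1, deviations of libraries with the same replicate number correlated at 0.379, 0.805 and 0.457 between conditions. The labels do not say whether equal numbers mark paired cultures, and with 2 libraries a condition these values cannot decide it. The main fits had a batch term, as in the Methods, and neither they nor the permutation tests used the replicate number. A fit with it as a block was an alternative. Transcript lengths came from GENCODE. All 4 genes matched the RefSeq promoter table. Named genes were the 4 connexins, *Sbsn*, tested members of a connexin and pannexin list, the partner genes of smallest p each way, and the 3 most alike loci per connexin. A few genes that these rules would name are not reported here, though they stayed in every fit. Members and lists were chosen with earlier results of these data known.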

Additional observations from a re-analysis of the deposited data

How the results depend on the processing

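No call of *Gjb2*, *Gjb5* or *Gjb6* in any comparison of the report changed under the alternatives run, which were fixed with the tests. With 1 library left out in turn, *Gja1* ranged from -0.71 to -0.19 between the batches, the first without siControl batch 1 replicate 1 and the last without the library labelled siSbsn batch 1 replicate 1, and from -1.25 to -0.40 for the interaction. It ranged from 0.42 to 1.27 in batch 1 alone, from -0.0108 to 0.0819 in batch 2 alone and from -0.40 to 0.54 for siSbsn against no siRNA. *Gjb5* ranged from -0.20 to 0.55 for siSbsn against siControl over both batches, from -0.55 to 1.39 in batch 1, from -0.0824 to 0.13 in batch 2, from -1.36 to 0.54 for the interaction, from -0.81 to 1.69 for siControl against no siRNA and from -0.26 to 1.94 for siSbsn against no siRNA. For the interaction *Gjb2* ranged from -0.16 to 0.36 and *Gjb6* from -0.59 to 0.20, and for siControl against no siRNA from -0.19 to 0.28 and from -0.26 to 0.30. For siSbsn against siControl over both batches, *Gjc3* ranged from -0.0854 to 0.0471, *Gjd2* from -0.22 to 0.0611 and *Panx1* from -0.0978 to 0.0301. *Gja4* ranged from -0.13 to 0.23 between the batches. *Sbsn* ranged from -0.87 to 0.60 in batch 1, from -0.38 to 0.0752 for siControl against no siRNA and from -1.07 to 0.42 for siSbsn against no siRNA.

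Counts of loci called turned on single batch 1 libraries. With 1 library left out they ranged from 0 to 2101 higher and 0 to 2674 lower for the interaction, from 2 to 1700 and 0 to 1699 for siSbsn against siControl in batch 1, from 0 to 5 and 1 to 5 in batch 2, and from 0 to 1740 and 0 to 1473 for siControl against no siRNA. The highest counts in batch 1 and for the interaction came without siControl batch 1 replicate 2, and those of batch 2 without siControl batch 2 replicate 3, and the cause was not tested.

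DESeq2 called 50 loci higher and 42 lower for siSbsn against siControl, 124 and 27 in batch 1, 1 and 6 in batch 2, 34 and 131 for the interaction, and 25 lower for siControl against no siRNA. Without a filter on low counts 396 and 82 were called in batch 1, 2 and 7 in batch 2, 17 lower for the interaction, and 234 and 581 for siControl against no siRNA, and *Gja1* was called between the batches at -0.51. After removal of the gene length trend 78 and 3 were called for siSbsn against siControl, 34 lower for the interaction and 1702 lower between the batches, *Gjb2* was at -0.10 for the interaction, and *Gjc1*, *Gjc3* and *Gja4* at 0.010, 0.088 and 0.012 for siSbsn against siControl. Without a batch term *Gjd2* was at 0.021.

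The replicate block of batch 1 called 8 loci higher and 65 lower for the interaction. Under it *Gja4* was at -0.0721 between the batches and *Sbsn* at -0.13 in batch 1, and it changed no call of the 4 genes. limma-voom gave *Gja4* as -0.0779 between the batches. Per kb of joined exons, *Gja1* minus *Gjb2* was -0.0733 in batch 1. Counts of *Gjb6*, 2 to 12 in batch 2, limit what can be said of it. The other alternative values, 398 of those with a library left out and 303 of the rest, kept their direction and their side of the threshold.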

Other observations

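Some connexins of other tissues were at or near 0 in every library. *Gje1* had 0 counts in all 12 libraries, where 3 counts would be 0.0583 to 0.108 CPM. *Gja10* had at most 2 counts in any library.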
